A study of Mus musculus with 24 samples.

Results

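Leukaemia cells with a floxed BAF subunit gene were compared directly with leukaemia cells with a floxed PBAF subunit gene. The comparison sets the 3 libraries titled as Arid1b VavCre knockouts (numbers 1, 3 and 4) against the 3 libraries titled as Arid2 fl/fl VavCre (numbers 1 to 3), chosen by their titles and by no measured value, and they are 6 of the 24 libraries of the series. The Arid1b floxed group carries Arid1b fl/fl, VavCre and the MLL-AF9 fusion, and the Arid2 floxed group carries Arid2 fl/fl, VavCre and MLL-AF9. The matching controls are 3 libraries of the Arid1b set with Arid1b +/+, VavCre and MLL-AF9, and 3 libraries of the Arid2 set with Arid2 +/+, VavCre and MLL-AF9. All 12 libraries are polyadenylated RNA of bone marrow leukaemia cells from secondary transplant recipients that had become moribund. VavCre is a Cre recombinase driven by the Vav gene's regulatory sequence, which works in the blood lineage from the embryo onward. Strain, age, any sorting of the marrow and the number of primary leukaemias behind each group are not given in the labels. The p-values therefore measure the spread between these libraries, which may in part be technical. The remaining 12 libraries carry MxCre, which is induced with pIpC. They entered the shared estimate of that spread, the filter for the genes tested and the scaling, but none of the comparisons.

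SWI/SNF complexes use the energy of ATP to move or evict nucleosomes and so open or close chromatin at promoters and enhancers. Arid1b is one of a pair of alternative large DNA-binding subunits of the BAF form, and Arid2 is a large DNA-binding subunit that defines the PBAF form, which also holds Pbrm1, Brd7 and Phf10. MLL-AF9 joins the chromatin-binding part of MLL to a protein of the transcription elongation machinery and keeps the Hoxa cluster and Meis1 expressed in myeloid progenitors.

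The groups differ in more than the floxed gene. Totals were 17093477 to 23472856 counts per library in Arid1b floxed and 33759315 to 37216225 in Arid2 floxed, with 17195974 to 18948255 in the controls of the Arid1b set and 28079167 to 38315410 in those of the Arid2 set. The 2 floxed groups belong to different sets, so the set and the floxed gene cannot be told apart in the direct comparison alone, and each gene is read beside the difference between the 2 control groups. Sex also differed. Kdm5d, a gene of the Y chromosome, had no count in any Arid1b floxed library and 56.2 CPM (counts per 1000000, scaled as described under the processing) in Arid2 floxed 2, against none in Arid2 floxed 1 and 3. The controls of the Arid1b set had 50.9, 56.5 and 56.9 CPM of Kdm5d and those of the Arid2 set none, so sex and set cannot be told apart among the controls. In a principal component analysis of the 12 VavCre libraries over the 1000 most variable genes, the floxed groups separated on the third component, which held 11% of the variance, at 10.4 to 29.0 for Arid1b floxed and -45.5 to -18.1 for Arid2 floxed. Arid1b floxed 1, the lowest of its group there, lay within the 6.34 to 10.7 of the controls of its set. The floxed groups overlapped on the first and second components, which held 47.1% and 17.7% of the variance. Genes of myeloid leukaemia cells were present throughout: Ptprc had 481 to 790 CPM in Arid1b floxed and 415 to 530 CPM in Arid2 floxed, and Meis1 had 90.4 to 91.2 CPM in Arid1b floxed and 85.5 to 120 CPM in Arid2 floxed.

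Neither floxed gene differed between the groups by more than the test's threshold. Arid1b (chromosome 17, 4994297 to 5347656, GRCm38) had 140, 184 and 169 CPM in Arid1b floxed libraries 1, 3 and 4, against 238, 221 and 188 CPM in Arid2 floxed libraries 1, 2 and 3, the order used for every gene below. The Arid1b values all lay below those of the Arid2 floxed group, by a log2 difference of -0.39 (SE 0.45, edgeR adjusted p 0.779). Its controls had 220, 186 and 367 CPM in the Arid1b set and 365, 412 and 187 CPM in the Arid2 set. Arid2 (chromosome 15, 96287522 to 96405463) had 271, 195 and 165 CPM in Arid1b floxed and 290, 281 and 197 CPM in Arid2 floxed, and the groups overlapped (log2 difference -0.28, SE 0.41, edgeR adjusted p 0.831). Its controls had 308, 260 and 402 CPM in the Arid1b set and 218, 443 and 237 CPM in the Arid2 set. The deleted exons are not given, and a transcript that lacks them still gives reads, so these counts do not test the deletion.

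The direct comparison called 92 of 14099 genes (0.653%) at an edgeR adjusted p under 0.05, of which 66 were higher and 26 lower in Arid1b floxed than in Arid2 floxed, and 73 differed by more than 2-fold. At an unadjusted p under 0.05 there were 1853 genes. For all 92 the 3 Arid1b floxed libraries lay on 1 side of the 3 Arid2 floxed libraries, as did 28.1% of all genes tested. The 92 were called on these same values, so their lack of overlap is no separate support for the calls. The control groups differed at 6 genes (0.0426%), all higher in the Arid1b set, with 1762 at an unadjusted p under 0.05. These 6 were Isg20l2, Rrnad1, Mir3064, Mir6418, Mir8094 and C530005A16Rik, named here after their values were seen. Control groups did not overlap at 20.6% of genes. The difference of the floxed effects, which is the Arid1b floxed group minus its controls less the Arid2 floxed group minus its controls, was called for 2 genes (0.0142%), Evpl and 5031425F14Rik, both higher, with 1389 genes at an unadjusted p under 0.05. On the fitted log2 scale, the direct difference is the sum of the control difference and this difference of effects.

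The number of calls in the direct comparison rested on single libraries. It was 14 without Arid2 floxed 1, 23 without Arid2 floxed 3, 25 without Arid1b floxed 4, 30 without Arid1b floxed 3 and 55 without control 1 of the Arid2 set. It stayed between 63 and 111 without any other VavCre library. The control difference had 0 calls without control 1 or control 2 of the Arid2 set, 3 without control 1 or control 2 of the Arid1b set and 56 without control 3 of the Arid1b set. The difference of effects had 13 calls without Arid1b floxed 1, 12 without control 3 of the Arid1b set, 4 without control 3 of the Arid2 set or without Arid2 floxed 2, and 3 without control 1 of the Arid2 set. With a term for libraries with Y-linked transcripts, the direct comparison called 60 genes, of which 55 were among the 92, the control difference called 0 and the difference of effects 4, Evpl and 5031425F14Rik among them. Without the Y-positive Arid2 floxed 2 it called 73, of which 48 were among the 92.

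**Figure D1:**
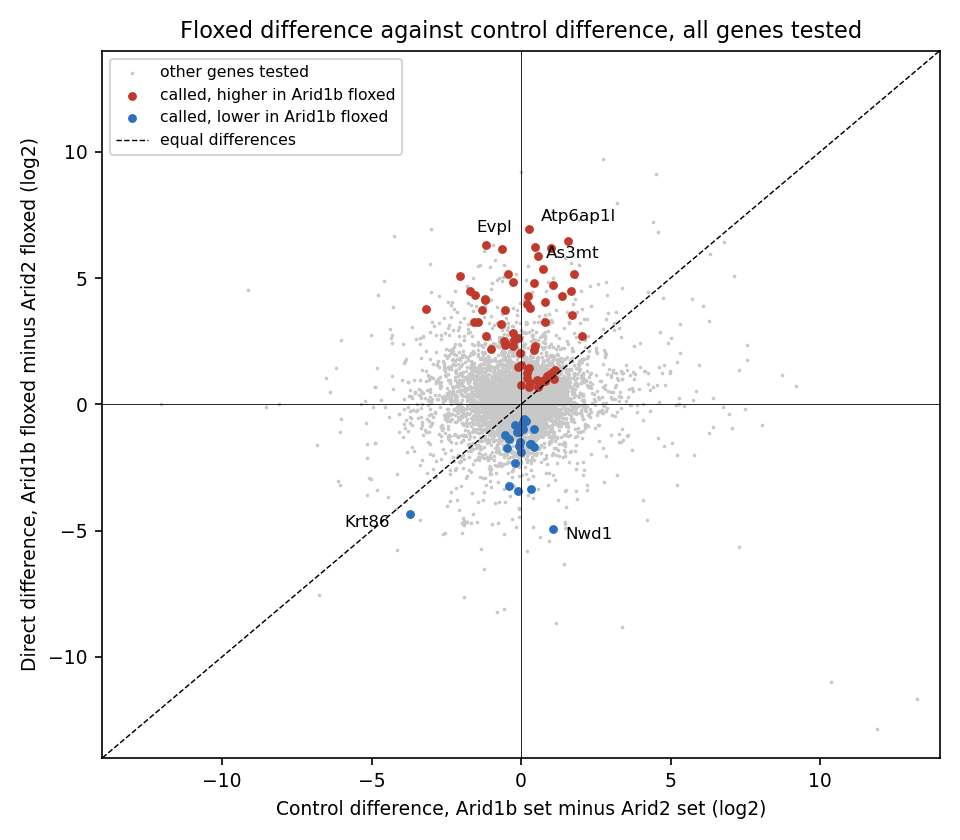
Each point is 1 of the 14099 genes tested, with the control difference (Arid1b set minus Arid2 set, log2) on the x axis and the direct difference (Arid1b floxed minus Arid2 floxed, log2) on the y axis. Red points are the 66 genes called higher and blue points the 26 called lower in Arid1b floxed, and the dashed line marks equal differences: most called genes lie along the vertical axis, away from that line.

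For most of the 92 called genes the estimated control difference was small beside the direct difference or of opposite sign. The 92 were called on the direct difference, which by itself makes the control difference look small beside it. The test of the difference of effects called only 2 of the 92. The control difference amounted to a median of 4.85% of the direct difference. That share carries its sign, so positive and negative shares offset each other and the median does not give the size of the control differences. In either direction, the control difference had an unadjusted edgeR p under 0.05 at 23 of the 92, against 1762 of all 14099 genes. As a share of the direct difference it was below 0.25 for 69 genes, 39 of them with a control difference of opposite sign, and above 0.5 for 14. Of these 14, 13 were among the 66 higher genes and 1 among the 26 lower ones. Predicted genes and small RNA entries made up 17 of the 66 higher and 1 of the 26 lower genes. The control groups did not overlap, in the direction of the floxed groups, at 22 of the 92. Over all genes 20.6% did not overlap in either direction. The share in 1 given direction is smaller than that, so the 20.6% is no like-for-like background for the 22. The largest part of the direct difference was the Arid1b floxed group against its own controls for 44 genes, the Arid2 floxed group against its own controls for 32, and the control difference for 16. Against their own controls, 926 genes (6.57%) were called in Arid1b floxed and 185 (1.31%) in Arid2 floxed. All 3 Arid1b floxed libraries were Y-negative and all 3 controls of that set Y-positive, so in every comparison of Arid1b floxed with its own controls, here and below, sex and floxed status cannot be told apart. Of the 92, 37 were called against their controls in Arid1b floxed alone, 22 in Arid2 floxed alone, Evpl in both and 32 in neither. These comparisons share the floxed libraries with the direct one, so the counts are a description and no separate evidence.

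**Figure D2:**
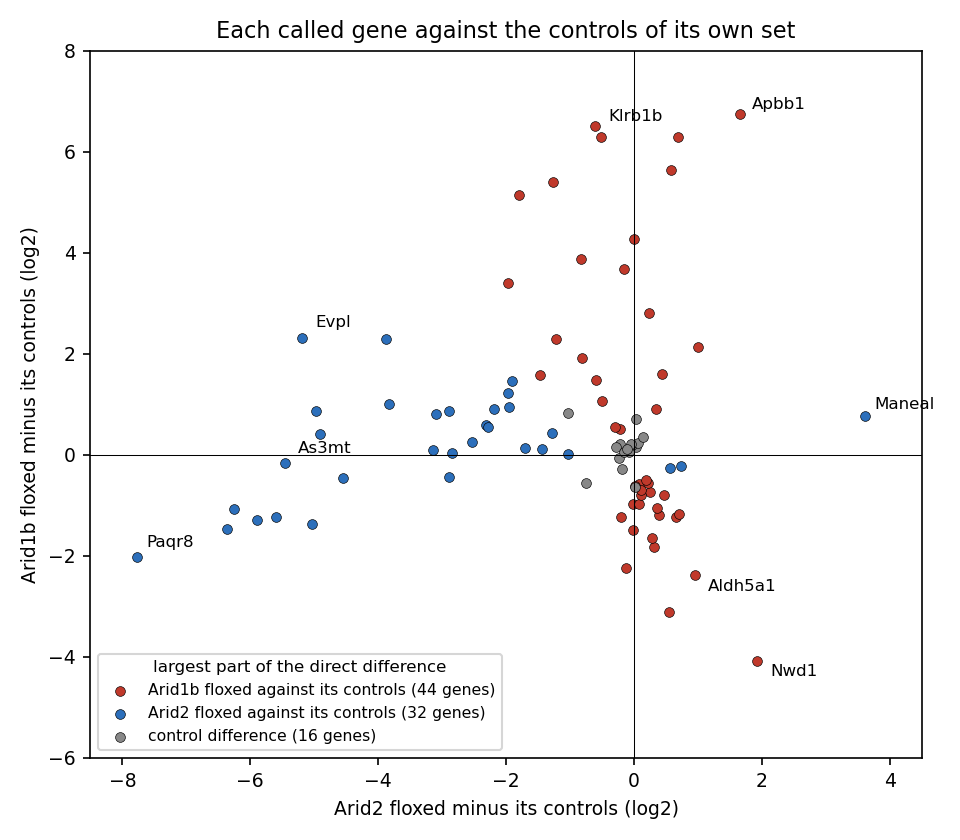
The 92 genes called in the direct comparison, with the log2 difference of Arid2 floxed from its controls on the x axis and that of Arid1b floxed from its controls on the y axis. Colours show the largest part of the direct difference: 44 genes (red) spread along the vertical axis, 32 (blue) mostly along the left of the horizontal axis, and 16 (grey) sit near the origin.

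Evpl rose in Arid1b floxed and fell in Arid2 floxed, each against its own controls. Evpl (chromosome 11, 116220559 to 116238165), which encodes envoplakin, a plakin that links cell junctions to the cytoskeleton in epithelia, had 60.9, 38.9 and 36.7 CPM in Arid1b floxed, against 0.703, 0.466 and 0.519 CPM in Arid2 floxed. The controls had 5.71, 7.26 and 14.3 CPM in the Arid1b set and 26.8, 21.9 and 13.4 CPM in the Arid2 set. All Arid1b floxed libraries lay above all 6 controls and all Arid2 floxed libraries below them. The direct log2 difference was 6.32 (SE 0.64, edgeR adjusted p 9.37e-05) and the control difference was -1.19 (SE 0.51, edgeR adjusted p 0.341). Against its own controls Evpl rose by 2.32 (SE 0.52, edgeR adjusted p 0.0166) in Arid1b floxed and fell by 5.18 (SE 0.61, edgeR adjusted p 0.000484) in Arid2 floxed, and the difference of these effects was 7.51 (SE 0.80, edgeR adjusted p 0.000216).

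The transcript 5031425F14Rik (chromosome 2, 166447451 to 166458770), a predicted gene named after its values were seen, had 4.68, 3.14 and 5.59 CPM in Arid1b floxed, against 0.521, 0.274 and 0.610 CPM in Arid2 floxed. The controls had 2.21, 2.06 and 2.44 CPM in the Arid1b set and 5.40, 6.06 and 8.66 CPM in the Arid2 set, so the floxed and control differences ran in opposite directions. The direct log2 difference was 3.24 (SE 0.46, edgeR adjusted p 0.00299) and the difference of effects 4.82 (SE 0.63, edgeR adjusted p 0.00252). It fell by 3.82 in Arid2 floxed against its controls (SE 0.47, edgeR adjusted p 0.000746), while the log2 difference in Arid1b floxed was 1.00 (SE 0.43, edgeR adjusted p 0.163).

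Many of the called genes were low or near absent in Arid2 floxed leukaemias. Of those that follow, all but Cd79b and Mfsd7a were named after their values were seen. As3mt (chromosome 19, 46707157 to 46741099), the methyltransferase that detoxifies arsenite, had 34.8, 33.6 and 37.3 CPM in Arid1b floxed, against 1.2, 0.219 and 0.366 CPM in Arid2 floxed. Its controls, at 34.1, 46.5 and 37.5 CPM in the Arid1b set and 33, 17.5 and 29.2 CPM in the Arid2 set, lay far above Arid2 floxed. The direct log2 difference was 5.86 (SE 0.83, edgeR adjusted p 0.00299), the control difference 0.57 (SE 0.66), and As3mt fell by 5.46 in Arid2 floxed against its controls (SE 0.82, edgeR adjusted p 0.00436). Its call in the direct comparison held in all 22 alternatives. Sat2, related to the acetyltransferases of polyamines, had 2.03, 1.15 and 1.14 CPM in Arid1b floxed and 0.026, 0.0823 and 0.0305 CPM in Arid2 floxed, with 2.54 to 4 CPM in the controls of the Arid1b set and 1.88 to 3.75 CPM in those of the Arid2 set (direct 4.80, SE 0.76, edgeR adjusted p 0.00491). The call of Sat2 was lost without Arid2 floxed 1.

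Ehhadh and Paqr8 were near absent in Arid2 floxed as well. Ehhadh, a peroxisomal enzyme of fatty acid oxidation, had 3.97, 6.82 and 7.27 CPM in Arid1b floxed, against 0.130, 0.0823 and 0.214 CPM in Arid2 floxed (direct 5.36, SE 1.03, edgeR adjusted p 0.0201). Its controls lay above both floxed groups in the Arid1b set, at 10.6 to 18.5 CPM, and at 6 to 11.3 CPM in the Arid2 set. Paqr8, a membrane receptor for progesterone, had 151 counts over the 3 Arid1b floxed libraries and 3 counts over the 3 Arid2 floxed libraries, a ratio of 89.7 after scaling (95% counting interval 30.1 to 440, which covers counting error only). Levels of Paqr8 in Arid1b floxed, at 0.520, 4.03 and 2.94 CPM, lay below the 9.18 to 10.7 CPM of the controls of its set. The calls of Ehhadh and Paqr8 were each lost without any one of Arid1b floxed 3 and 4 and Arid2 floxed 1, 2 and 3.

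The neighbouring X-linked genes Cxx1a and Cxx1b, whose reads the counting could split, were near absent there too. Cxx1b had 0.142, 3.01 and 2.22 CPM in Arid1b floxed and 0, 0 and 0.061 CPM in Arid2 floxed, or 108 against 2 counts, a ratio of 96.2 (counting interval 26 to 805), and 1.83 to 4.74 CPM in all 6 controls. Arid1b floxed 1 was far below the other 2 libraries of its group. Zfp551, a zinc finger gene, had 30 counts over Arid1b floxed and 0 over Arid2 floxed, which is at least 17.8-fold higher when a floor of 3 counts is set for the Arid2 floxed group as a whole. Cxx1b kept its call in all fits that left out 1 library except the one without Arid2 floxed 1, and Zfp551 lost it without Arid1b floxed 4 or any one Arid2 floxed library.

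Cd79b, Tgm3 and Il2rg were higher in Arid1b floxed, and each fell in Arid2 floxed against its own controls. Cd79b (chromosome 11, 106311341 to 106314562), a signalling subunit of the B cell receptor, had 62.0, 41.0 and 36.0 CPM in Arid1b floxed, against 5.05, 2.52 and 0.885 CPM in Arid2 floxed. Its controls had 63.0, 58.6 and 8.88 CPM in the Arid1b set and 27.5, 20.7 and 26.7 CPM in the Arid2 set. The direct log2 difference was 4.03 (SE 0.78, edgeR adjusted p 0.0213), and Cd79b fell by 3.14 in Arid2 floxed against its controls (SE 0.75, edgeR adjusted p 0.0478) while it differed by 0.09 (SE 0.69) in Arid1b floxed. Tgm3, a transglutaminase that crosslinks proteins, had 10.3, 6.86 and 4.2 CPM in Arid1b floxed and 0.208, 0.576 and 0.427 CPM in Arid2 floxed (direct 4.13, SE 0.75, edgeR adjusted p 0.015). Il2rg, the common gamma chain of several interleukin receptors, had 26.0, 28.1 and 48.8 CPM in Arid1b floxed and 7.55, 7.84 and 5.55 CPM in Arid2 floxed (direct 2.29, SE 0.42, edgeR adjusted p 0.0156). The call of Cd79b was lost without Arid1b floxed 3 or 4 or any one Arid2 floxed library, that of Tgm3 without Arid2 floxed 1 or 3, and that of Il2rg without Arid1b floxed 4 or Arid2 floxed 1 or 3.

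Mfsd7a, a gene of the major facilitator family of transporters (chromosome 5, 108441052 to 108450765), was another gene of this kind. It had 7.89, 32.5 and 35.6 CPM in Arid1b floxed, against 0.443, 1.04 and 1.92 CPM in Arid2 floxed, with 3.45, 2.29 and 9.69 CPM in the controls of the Arid1b set and 6.34, 14.7 and 28.9 CPM in those of the Arid2 set. The direct log2 difference was 4.48 (SE 0.95, edgeR adjusted p 0.038). It fell by 3.87 in Arid2 floxed against its controls (SE 0.92, edgeR adjusted p 0.0467), whereas the value in Arid1b floxed was 2.30 (SE 0.86, edgeR adjusted p 0.11). Its call was lost without Arid1b floxed 3 or 4, control 2 of the Arid2 set, or any one Arid2 floxed library. Smaller and steadier was Ccdc69, a coiled-coil protein gene, with 23.5, 25 and 23.4 CPM in Arid1b floxed and 10.5, 9.05 and 10.8 CPM in Arid2 floxed (direct 1.24, SE 0.20, edgeR adjusted p 0.00612), and 16.9 to 30.6 CPM over the 6 controls. Rbbp9, a serine hydrolase gene, had 8.98, 7.31 and 6.97 CPM in Arid1b floxed and 0.365, 1.81 and 1.80 CPM in Arid2 floxed, with 5.43 to 8.83 CPM over the controls (direct 2.55, SE 0.43, edgeR adjusted p 0.00858).

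Within the Hoxa cluster, which MLL fusions keep active, Hoxa2 and Hoxa3 were higher in Arid1b floxed than in Arid2 floxed. Of its 12 entries tested, all 12 had a positive direct log2 difference, 10 did not overlap between the floxed groups (28.1% of all genes), and 2 were called. The median direct difference over the 12 was 2.21 and the median control difference -0.493. Against their own controls, the median was 0.321 in Arid1b floxed and -2.17 in Arid2 floxed. Neighbouring genes of a cluster are not independent of each other, so the counts describe 1 region.

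Hoxa2 (chromosome 6, 52162417 to 52164831) and Hoxa3 (52169059 to 52213067) were the called genes of the cluster and were named after their values were seen. Hoxa2 had 6.57, 9.61 and 8.35 CPM in Arid1b floxed, against 0.990, 2.28 and 1.07 CPM in Arid2 floxed, with 2.10, 2.80 and 3.25 CPM in the controls of the Arid1b set and 4.25, 4.57 and 3.26 CPM in those of the Arid2 set. The direct difference was 2.50 (SE 0.39, edgeR adjusted p 0.00491). Hoxa2 rose by 1.59 in Arid1b floxed against its controls (SE 0.38, edgeR adjusted p 0.0201), and in Arid2 floxed the value was -1.48 (SE 0.38, edgeR adjusted p 0.056). Hoxa3 had 25.8, 43.4 and 35.9 CPM in Arid1b floxed and 4.71, 8.45 and 7.32 CPM in Arid2 floxed (direct 2.36, SE 0.53, edgeR adjusted p 0.0463). The call of Hoxa2 was lost without Arid2 floxed 1, and that of Hoxa3 without any one of 10 libraries, Arid1b floxed 1 and control 3 of the Arid1b set being the exceptions.

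Hoxa9 and Hoxa10, known as MLL-fusion effectors, had positive differences that did not pass the test, and that of Meis1 was slightly negative. Hoxa10 was named after its values were seen. Hoxa9 (chromosome 6, 52223097 to 52227370), the transcription factor that sustains self-renewal with Meis1, had 269, 246 and 210 CPM in Arid1b floxed, against 20.1, 91.6 and 80.5 CPM in Arid2 floxed. Its controls had 152, 150 and 426 CPM in the Arid1b set and 365, 341 and 280 CPM in the Arid2 set. The floxed groups did not overlap, and the direct log2 difference was 1.91 (SE 0.58, edgeR adjusted p 0.131). Hoxa10 had 58.9, 72.5 and 65.2 CPM in Arid1b floxed and 0.391, 18.8 and 14.2 CPM in Arid2 floxed, library 1 being the lowest for both genes (direct 2.56, SE 0.84, edgeR adjusted p 0.162). Meis1 differed by -0.14 (SE 0.39, edgeR adjusted p 0.931). Over the list of MLL-fusion targets and self-renewal genes, 13 of 18 were positive, 0 were called by edgeR (5 at an unadjusted p under 0.05, 2 by DESeq2 and 6 by voom) and the median was 0.27, against 49.0% positive and a median of -0.0084 over all genes tested. The 5 were Hoxa5, Hoxa6, Hoxa7, Hoxa9 and Hoxa10. All lie in the Hoxa cluster described above, so they describe that region and not the list as a whole.

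Other called genes rose in Arid1b floxed leukaemias against their own controls. Itgax (chromosome 7, 128129526 to 128150657), an integrin alpha chain of dendritic cells and macrophages, had 20.4, 122 and 91.9 CPM in Arid1b floxed, against 3.93, 2.77 and 6.41 CPM in Arid2 floxed. The controls had 4.79, 9.94 and 7.61 CPM in the Arid1b set and 7.8, 20 and 23.7 CPM in the Arid2 set. The direct log2 difference was 4.16 (SE 0.81, edgeR adjusted p 0.0213), with a control difference of -1.20 (SE 0.72, edgeR adjusted p 0.537), and Itgax rose by 3.39 in Arid1b floxed against its controls (SE 0.78, edgeR adjusted p 0.0179). Apbb1 (chromosome 7, 105558465 to 105581924), an adaptor that binds the amyloid precursor protein, had 11.9, 52.3 and 44.4 CPM in Arid1b floxed and 1.25, 1.62 and 0.885 CPM in Arid2 floxed, while no control exceeded 0.629 CPM. Its direct difference was 4.85 (SE 1.10, edgeR adjusted p 0.0492) and it rose by 6.76 in Arid1b floxed against its controls (SE 1.23, edgeR adjusted p 0.00765). In both genes Arid1b floxed 1 was the lowest of its group.

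Klrb1b (chromosome 6, 128813706 to 128826315), a lectin-like receptor of natural killer cells, had 3.26, 6.55 and 6.55 CPM in Arid1b floxed, against 0.026, 0.0823 and 0.366 CPM in Arid2 floxed. The direct difference was 5.08 (SE 0.96, edgeR adjusted p 0.0193) and the highest of the 6 controls had 0.365 CPM. Atp6ap1l (chromosome 13, 90883439 to 90905355), related to an accessory subunit of the vacuolar proton pump, had 3.78, 4.87 and 3.66 CPM in Arid1b floxed and 0, 0.0823 and 0 CPM in Arid2 floxed. This is 251 against 3 counts, a ratio of 149 with a counting interval of 50.4 to 728 (edgeR adjusted p 0.0159). Ndnf (chromosome 6, 65671611 to 65712323), a secreted glycoprotein known from neurons, had 0.472, 11.8 and 5.59 CPM in Arid1b floxed and 0.182, 0 and 0.305 CPM in Arid2 floxed, so that library 1 came close to the Arid2 floxed group (direct 5.16, SE 1.17, edgeR adjusted p 0.0492).

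These calls depended on single libraries to different degrees. Itgax lost its call without Arid1b floxed 3 or 4 or any one Arid2 floxed library, and Klrb1b without Arid1b floxed 3 or 4 or Arid2 floxed 1 or 2. Atp6ap1l lost it without Arid1b floxed 3 or Arid2 floxed 1 or 3. Apbb1 kept it only without Arid1b floxed 1 or control 3 of the Arid1b set, and Ndnf only without Arid1b floxed 1 or control 3 of the Arid2 set, among the 12 fits that left out 1 VavCre library.

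Further genes of this kind were named after their values were seen. Il1r2, the decoy receptor for interleukin 1, had 27.3, 20.1 and 17.2 CPM in Arid1b floxed, against 1.67, 4.36 and 0.732 CPM in Arid2 floxed (direct 3.25, SE 0.71, edgeR adjusted p 0.0444), and at most 6.89 CPM in a control. Cmah, the hydroxylase that makes the N-glycolyl form of sialic acid, had 5.29, 27.8 and 28.6 CPM in Arid1b floxed and 0.938, 1.62 and 2.04 CPM in Arid2 floxed (direct 3.74, SE 0.77, edgeR adjusted p 0.031). St8sia1, a sialyltransferase that makes gangliosides, had 3.78, 1.77 and 2.64 CPM in Arid1b floxed and 0.0521, 0.357 and 0.183 CPM in Arid2 floxed (direct 3.76, SE 0.83, edgeR adjusted p 0.045). Its controls lay in the opposite order, at 0.0507 to 0.114 CPM in the Arid1b set and 0.407 to 1.28 CPM in the Arid2 set. Wipi1, which binds phosphoinositides during autophagy, had 120, 118 and 91.5 CPM in Arid1b floxed and 24.5, 50.2 and 36.5 CPM in Arid2 floxed (direct 1.57, SE 0.26, edgeR adjusted p 0.00612), with 38.4 to 70.8 CPM over the controls. Sema4c, a membrane semaphorin, had 45.3, 69.4 and 46.8 CPM in Arid1b floxed and 15, 14.8 and 9.31 CPM in Arid2 floxed (direct 2.04, SE 0.40, edgeR adjusted p 0.021). Il1r2, Cmah, St8sia1, Wipi1 and Sema4c were each called against the controls of the Arid1b set as well, at edgeR adjusted p of 0.00909, 0.00829, 0.00813, 0.02 and 0.0314. Without Arid2 floxed 1 all 5 lost their direct call. Wipi1 kept it without any other library, while Sema4c and Cmah lost it also without Arid1b floxed 3 or 4 or Arid2 floxed 2 or 3, Il1r2 also without any one Arid1b floxed library, control 2 of the Arid2 set or Arid2 floxed 3, and St8sia1 without any VavCre library except control 3 of the Arid1b set and control 2 of the Arid2 set.

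The genes that were lower in Arid1b floxed than in Arid2 floxed differed by smaller amounts. Over the 26, the median log2 difference was -1.44, against 2.78 over the 66 higher ones. For 22 of the 26 the largest part was the Arid1b floxed group against its own controls. Aldh5a1 (chromosome 13, 24907579 to 24937661), which degrades the neurotransmitter GABA through succinic semialdehyde, had 2.32, 1.33 and 1.26 CPM in Arid1b floxed, against 18.3, 9.43 and 26.2 CPM in Arid2 floxed. The controls, at 14.5, 4.63 and 6.65 CPM in the Arid1b set and 10.8, 9.64 and 7.47 CPM in the Arid2 set, lay between the floxed groups or within the Arid2 floxed range. The direct difference was -3.45 (SE 0.53, edgeR adjusted p 0.00491), the control difference -0.12 (SE 0.48, edgeR adjusted p 0.954), and Aldh5a1 fell by 2.39 in Arid1b floxed against its controls (SE 0.51, edgeR adjusted p 0.013). The call held in all 22 alternatives. Nearby, 4932702P03Rik and Gm11346 are predicted genes named after their values were seen. 4932702P03Rik (24905600 to 24911780) overlaps Aldh5a1 in position and was also called lower (direct -3.34, SE 0.60, edgeR adjusted p 0.0139). Gm11346 (from 24598124) and Cmah (from 24327404), both called higher, lie close by. Chromosome 13 had 11 of 553 genes called (1.99%), against 0.653% of all genes. It had the highest share of all chromosomes and is named here after the shares were seen. The 11 include these overlapping and nearby entries, so they are not independent of each other. The part of shared reads or of a linked region was not tested.

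Lrp5, Ctnnd1 and Gng7 were among the lower genes. Lrp5 (chromosome 19, 3584825 to 3686585), a Wnt co-receptor, was named after its values were seen and had 68.2, 43.0 and 48.2 CPM in Arid1b floxed, against 144, 148 and 187 CPM in Arid2 floxed. With controls at 147, 112 and 99.8 CPM in the Arid1b set and 88.7, 88.7 and 115 CPM in the Arid2 set, the direct difference was -1.59 (SE 0.24, edgeR adjusted p 0.00491), and the call held in all 22 alternatives. Ctnnd1 (chromosome 2, 84587096 to 84658977), a catenin that binds and stabilises cadherins, had 29.2, 50.8 and 35.4 CPM in Arid1b floxed and 156, 93.7 and 177 CPM in Arid2 floxed, and its 2 control groups were at 64.7 to 112 CPM and 84.2 to 97.4 CPM (direct -1.89, SE 0.32, edgeR adjusted p 0.00897). Gng7, a gamma subunit of heterotrimeric G proteins, had 3.73, 2.57 and 2.64 CPM in Arid1b floxed and 17.5, 11.7 and 15.7 CPM in Arid2 floxed (direct -2.33, SE 0.43, edgeR adjusted p 0.0182). Both fell in Arid1b floxed against their controls, Ctnnd1 by 1.23 (SE 0.32, edgeR adjusted p 0.0286) and Gng7 by 1.82 (SE 0.43, edgeR adjusted p 0.0193). The call of Ctnnd1 was lost without Arid1b floxed 4 or Arid2 floxed 1 or 3, and that of Gng7 also without Arid1b floxed 3.

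Nwd1 (chromosome 8, 72646225 to 72716880), which encodes a protein with a NACHT domain, had 0.378, 0.0443 and 0.180 CPM in Arid1b floxed, against 9.01, 4.83 and 5 CPM in Arid2 floxed (direct -4.93, SE 1.09, edgeR adjusted p 0.0449). Its controls had 5.33, 3.03 and 2.08 CPM in the Arid1b set and 0.782, 3.37 and 0.815 CPM in the Arid2 set, all above Arid1b floxed. Atxn1, a transcriptional co-repressor, had 4.02, 5.54 and 8.77 CPM in Arid1b floxed and 20.8, 14 and 25 CPM in Arid2 floxed (direct -1.71, SE 0.33, edgeR adjusted p 0.0202), and fell by 2.25 in Arid1b floxed against its controls (SE 0.33, edgeR adjusted p 0.0036). Zfp28, a zinc finger gene, had 2.79, 1.99 and 2.58 CPM in Arid1b floxed and 6.43, 8.09 and 9.86 CPM in Arid2 floxed (direct -1.73, SE 0.39, edgeR adjusted p 0.047). Nwd1 and Zfp28 lost their calls without any one of the 6 floxed libraries and without control 1 of either set, and besides that Nwd1 without control 2 of the Arid1b set and control 3 of the Arid2 set, and Zfp28 without control 2 or 3 of the Arid2 set. Atxn1 lost it without Arid1b floxed 1 or 3 or Arid2 floxed 1 or 3.

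Agps, Abcd3, Bbs4 and Bbs9 were also called lower, and are named here after their values were seen. Agps, which makes ether lipids in peroxisomes, had 411, 271 and 346 CPM in Arid1b floxed, against 673, 574 and 735 CPM in Arid2 floxed, with 402 to 668 CPM over the 6 controls (direct -0.95, SE 0.20, edgeR adjusted p 0.038). Abcd3, a transporter of the peroxisomal membrane, had 20.6, 16.4 and 20.4 CPM in Arid1b floxed and 39.9, 35.5 and 45.9 CPM in Arid2 floxed, with 42.9 to 48.1 CPM over the controls (direct -1.08, SE 0.21, edgeR adjusted p 0.0247). Bbs4 and Bbs9, 2 subunits of the complex that sorts membrane proteins to cilia, had direct differences of -0.99 (SE 0.22, edgeR adjusted p 0.0449) and -0.70 (SE 0.14, edgeR adjusted p 0.0346). Bbs9 had 19.4, 17.9 and 16.9 CPM in Arid1b floxed and 30.2, 27.6 and 30 CPM in Arid2 floxed, and 22.3 to 29.7 CPM over the controls. Agps, Abcd3 and Bbs9 each lost their call without Arid1b floxed 3 or 4 or Arid2 floxed 1 or 3, Agps also without control 1 of the Arid2 set and Bbs9 also without Arid1b floxed 1, and Bbs4 lost it without any one of 9 libraries.

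Maneal was the only one of the 26 lower genes called against its controls in Arid2 floxed alone. Maneal, related to an endomannosidase of the Golgi and named after its values were seen, had 0.425, 0.310 and 0.180 CPM in Arid1b floxed, against 1.64, 4.11 and 3.20 CPM in Arid2 floxed, and no control exceeded 0.272 CPM. The direct difference was -3.25 (SE 0.51, edgeR adjusted p 0.00491). Against its controls Maneal rose by 3.61 in Arid2 floxed (SE 0.51, edgeR adjusted p 0.00222) and differed by 0.76 in Arid1b floxed (SE 0.53, edgeR adjusted p 0.412).

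**Figure D3:**
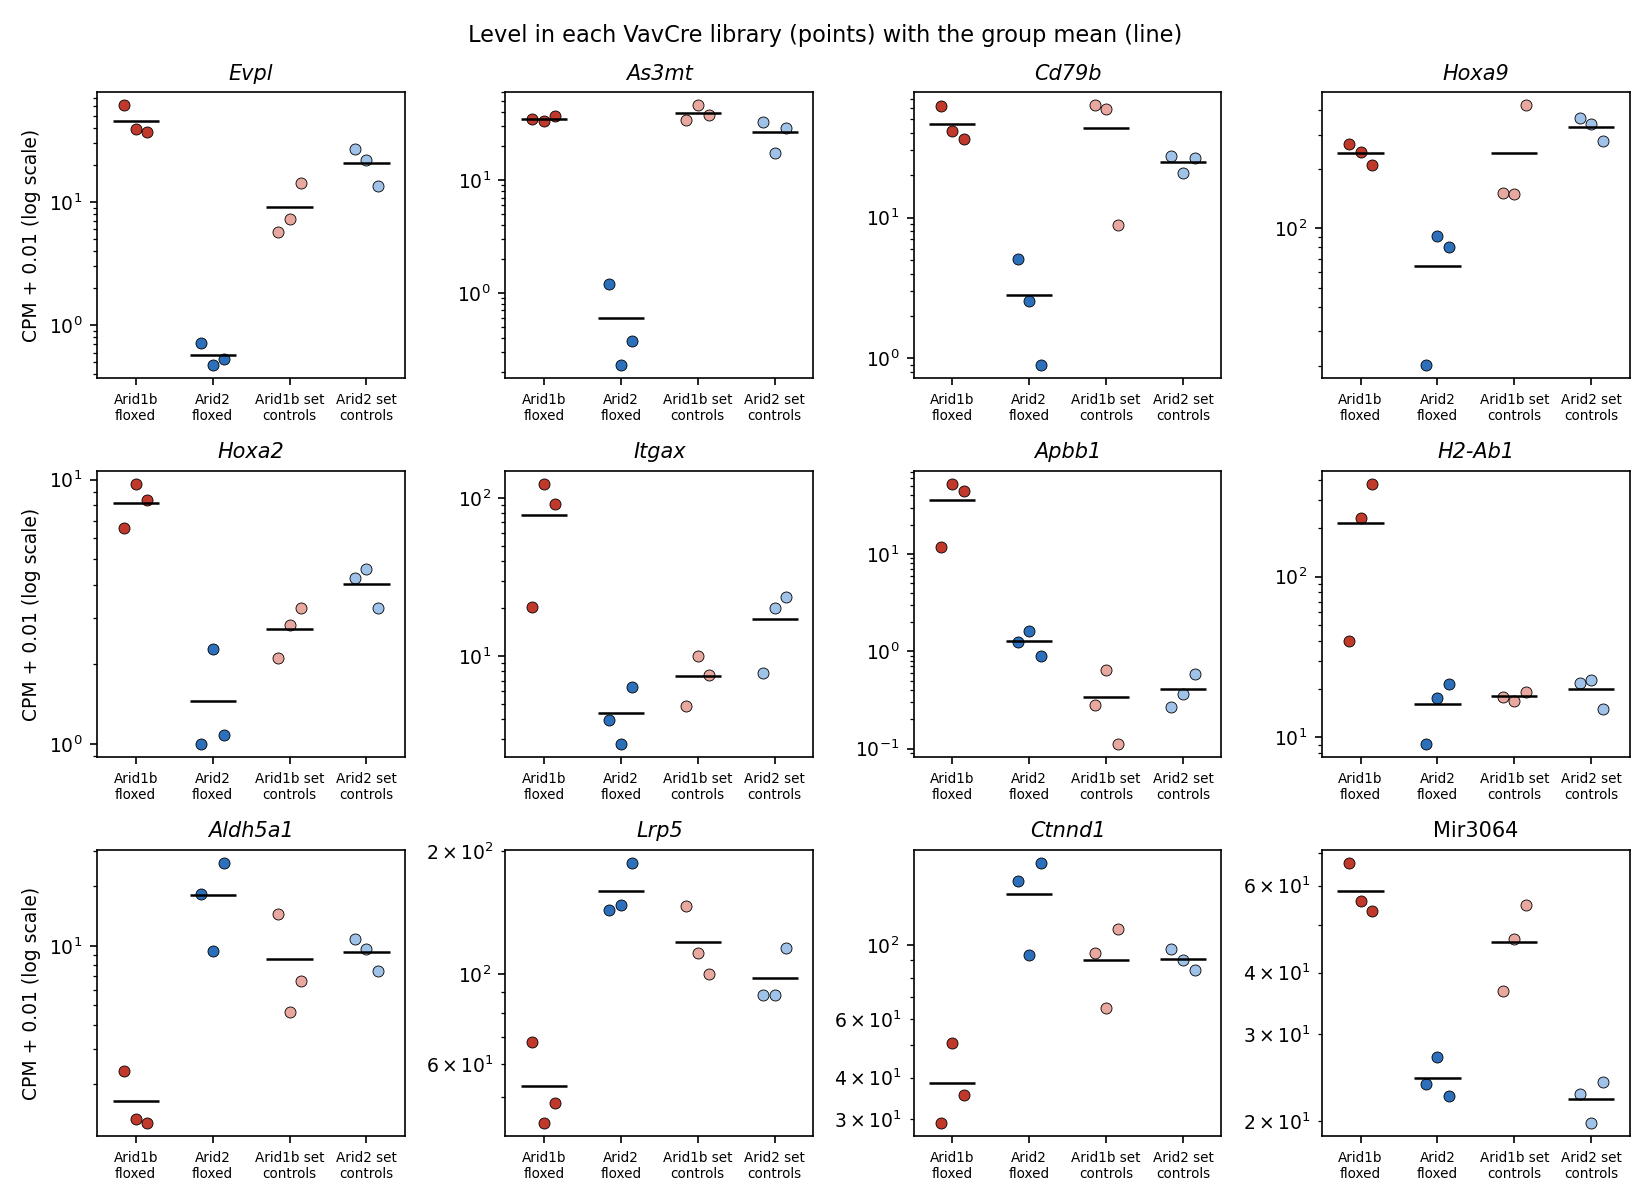
CPM plus 0.01 on a log scale for 12 genes, each point 1 of the 12 VavCre libraries and each line a group mean. From left to right in each panel are Arid1b floxed, Arid2 floxed and the controls of the Arid1b and Arid2 sets: Evpl, As3mt and Cd79b are low in Arid2 floxed, Itgax, Apbb1 and H2-Ab1 high in Arid1b floxed, Aldh5a1, Lrp5 and Ctnnd1 low in Arid1b floxed, and Mir3064 is higher in both groups of the Arid1b set.

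MHC class II genes had positive direct differences that did not pass the test. All 12 MHC class II presentation genes had a positive direct difference, with a median of 1.28 against -0.0084 over all genes, but 0 passed the edgeR test (5 at an unadjusted p under 0.05, 5 by DESeq2 and 8 by voom), and 7 did not overlap between the floxed groups (28.1% of all genes). H2-Ab1, a beta chain of MHC class II, had 39.8, 232 and 376 CPM in Arid1b floxed, against 9.09, 17.6 and 21.6 CPM in Arid2 floxed (direct 3.74, SE 0.89, edgeR adjusted p 0.0597), and 15 to 22.8 CPM over the 6 controls. Cd74, the invariant chain that guides MHC class II to endosomes, had 114, 883 and 1252 CPM in Arid1b floxed and 4.84, 22.8 and 42.8 CPM in Arid2 floxed (direct 5.0, SE 1.33, edgeR adjusted p 0.0865). Ciita, the transcriptional activator of these genes, had 4.06, 23.1 and 33 CPM in Arid1b floxed and 0.391, 1.48 and 1.56 CPM in Arid2 floxed (direct 4.13, SE 1.17, edgeR adjusted p 0.105). Cd74 and Ciita were named after their values were seen. Both H2-Ab1 and Cd74 rose against their own controls in Arid1b floxed, by 3.59 (SE 0.89, edgeR adjusted p 0.0248) and 6.32 (SE 1.42, edgeR adjusted p 0.0166), while in Arid2 floxed the values were -0.30 (SE 0.80) and -0.27 (SE 1.13).

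Of 17 dendritic cell genes, 15 were positive, Itgax was called and the median was 1.56, with a control median of -1.004. At an unadjusted p under 0.05 there were 7 of these genes, and DESeq2 called 7 and voom 10. Their summed level was 1514 to 1986 CPM in Arid1b floxed and 295.6 to 1656 CPM in Arid2 floxed, so the sums overlapped. Zbtb46, a transcription factor of conventional dendritic cells, had 0.945, 3.06 and 1.98 CPM in Arid1b floxed and 0.156, 0.219 and 0.122 CPM in Arid2 floxed (direct 3.54, SE 0.84, edgeR adjusted p 0.0597). Zbtb46 was named after its values were seen. In bulk RNA, more cells of a type and more RNA per cell cannot be told apart. Whether other cells in the marrow took part in the difference of Itgax or of the MHC class II genes was not tested.

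Cd79b was the only B lineage gene called by edgeR. Of 15 B lineage genes, 14 were positive and the median was 0.81, with 4 higher at an unadjusted p under 0.05, 3 called by DESeq2 and 5 by voom. Their summed level was 119.4 to 144 CPM in Arid1b floxed and 15.23 to 74.87 CPM in Arid2 floxed, and 8 of the 15 were under 1 CPM in all 6 floxed libraries. Dntt, of early B cells, is among these 15 and had no count in the 6 floxed libraries, so its direct difference rests on no read. Of 20 T and NK cell genes, 5 were positive, 0 were called and the median was -0.75, while their summed level was 81.45 to 126.9 CPM in Arid1b floxed and 38.49 to 57.46 CPM in Arid2 floxed. Cd3e, a defining T cell gene named after its values were seen, had 0.142 to 0.420 CPM in Arid1b floxed and 0.0548 to 1.56 CPM in Arid2 floxed. Klrd1, a receptor chain of NK cells, had 3.92, 6.47 and 4.26 CPM in Arid1b floxed and 0.417, 0.932 and 0.885 CPM in Arid2 floxed (direct 2.71, SE 0.85, edgeR adjusted p 0.141).

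Of the inflammatory and stimulus-response lists, 1 gene was called. Of 20 NF-kB and inflammatory genes 18 were positive, with a median of 0.66 and 0 called, and Traf1, a signalling adaptor and NF-kB target, had 1.04, 5.58 and 3.54 CPM in Arid1b floxed and 0.469, 0.192 and 0.732 CPM in Arid2 floxed (direct 2.86, SE 0.68, edgeR adjusted p 0.0613). Of 20 immediate-early genes 16 were positive, with a median of 0.38, and Ier5 was called. Ier5 had 23.7, 47.7 and 40 CPM in Arid1b floxed and 6.62, 7.19 and 10.7 CPM in Arid2 floxed, with 13, 15.5 and 18.9 CPM in the controls of the Arid1b set and 25.6, 37.3 and 32.8 CPM in those of the Arid2 set (direct 2.18, SE 0.50, edgeR adjusted p 0.0496). Its call was lost without any VavCre library except Arid1b floxed 1. Of 25 interferon-stimulated genes 17 were positive, with a median of 0.68, a control median of -1.09 and 0 called, and Ifih1, a sensor of viral RNA, had 11.8, 17.9 and 24 CPM in Arid1b floxed and 29.2, 20.1 and 47.8 CPM in Arid2 floxed (direct -0.86, SE 0.40, edgeR adjusted p 0.364). Of 14 Toll-like receptor genes 5 were positive, with a median of -0.19 and 0 called, and Tlr4 had 4.30, 2.83 and 5.16 CPM in Arid1b floxed and 9.92, 5.46 and 24.9 CPM in Arid2 floxed (direct -1.71, SE 0.59, edgeR adjusted p 0.18).

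Lists of myeloid maturation held no called gene. Of 12 primary neutrophil granule genes 1 was positive, with a median of -0.37 and a control median of -0.42, and no member had an unadjusted p under 0.05. Cebpe, a granulocyte transcription factor of that list, had 52.7, 34.7 and 40.9 CPM in Arid1b floxed and 109, 44.0 and 89.3 CPM in Arid2 floxed (direct -0.92, SE 0.46, edgeR adjusted p 0.413). Of 17 secondary and tertiary granule genes 9 were positive, with a median of 0.58 and a control median of -1.93, and Padi4 differed by 1.38 (SE 0.75, edgeR adjusted p 0.45). Of 26 monocyte and macrophage genes 13 were positive, with a median of 0.01 and a control median of -1.37, and Apoe, a lipid carrier of macrophages, had 151, 125 and 134 CPM in Arid1b floxed and 31.9, 40.7 and 25 CPM in Arid2 floxed (direct 2.07, SE 0.84, edgeR adjusted p 0.271).

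Lists of other blood and marrow lineages also held no called gene. Of 18 stem and progenitor genes 8 were positive, with a median of -0.21 and a control median of 0.94, and Slamf1, of stem cells, had at most 0.0443 CPM in Arid1b floxed and 0.182, 0.274 and 0.214 CPM in Arid2 floxed (direct -3.38, SE 1.11, edgeR adjusted p 0.159). Of 14 mast cell, basophil and eosinophil genes 8 were positive with a median of 0.27, and Alox15, of eosinophils, differed by 4.85 (SE 1.43, edgeR adjusted p 0.123). Of 14 erythroid genes 11 were positive with a median of 0.48, and Car1 differed by 1.36 (SE 1.93, edgeR adjusted p 0.83). The 11 megakaryocyte genes had a median of 0.03 and Gp9 differed by -1.74 (SE 1.09, edgeR adjusted p 0.54). The 12 stromal and endothelial genes had a median of -0.18, and Pdgfrb, of mesenchymal cells, had 34.7, 106 and 60.0 CPM in Arid1b floxed and 31.8, 32.6 and 2.20 CPM in Arid2 floxed (direct 1.59, SE 1.14, edgeR adjusted p 0.607).

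No subunit of the remodelling complexes passed the test. None of the 16 SWI/SNF core and ATPase subunits, 4 BAF-specific, 4 PBAF-specific and 3 ncBAF subunits tested was called by edgeR (1 at an unadjusted p under 0.05, 0 by DESeq2 and 3 by voom in all), with medians of -0.0053, -0.12, -0.23 and 0.20. Phf10, of PBAF, had 61.7, 58.5 and 61.8 CPM in Arid1b floxed, against 71.2, 75.7 and 90.5 CPM in Arid2 floxed, without overlap (direct -0.38, SE 0.12, edgeR adjusted p 0.129). Brd9, of ncBAF, had 105, 95.8 and 93.1 CPM in Arid1b floxed and 81.3, 82.1 and 87.3 CPM in Arid2 floxed, and differed by 0.23 both between the floxed groups (SE 0.12, edgeR adjusted p 0.418) and between the controls (SE 0.12, edgeR adjusted p 0.44). Bcl7b, a core-associated subunit, differed by 0.26 (SE 0.16, edgeR adjusted p 0.537), and Dpf3, of BAF, was under 0.4 CPM in all 6 floxed libraries. Of 22 polycomb and DNA methylation genes, which maintain silencing, 10 were positive with a median of -0.04 and 0 called, and Dnmt3b, a methyltransferase, differed by -0.73 (SE 0.23, edgeR adjusted p 0.143).

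Growth, survival and metabolism lists gave 1 call. Bik, a pro-apoptotic member of the BCL2 family, was the only one of 20 apoptosis regulators called, at 1.46, 1.02 and 1.56 CPM in Arid1b floxed, against 0.0781, 0.110 and 0 CPM in Arid2 floxed (direct 4.28, SE 0.81, edgeR adjusted p 0.0193). Its controls had 0.609 to 1.09 CPM in the Arid1b set and 0.204 to 0.425 CPM in the Arid2 set, also without overlap. The call was lost without Arid1b floxed 4 or Arid2 floxed 1 or 3. Of 21 cytokine receptor and feedback genes 16 were positive with a median of 0.25, and Kit, the receptor for stem cell factor, had 18, 38 and 51.2 CPM in Arid1b floxed and 53.3, 60.6 and 146 CPM in Arid2 floxed (direct -1.28, SE 0.48, edgeR adjusted p 0.225). Of 19 adhesion and homing genes 13 were positive with a median of 0.20, and Cd9, a tetraspanin, had 15, 57.6 and 40.4 CPM in Arid1b floxed and 5.70, 5.32 and 14.9 CPM in Arid2 floxed (direct 2.12, SE 0.60, edgeR adjusted p 0.103). The control groups of Cd9 lay in the opposite order, at 8.13 to 10.6 CPM in the Arid1b set and 36.3 to 67.2 CPM in the Arid2 set. Of 15 p53 targets 10 were positive with a median of 0.29, and Fas, a death receptor, had 1.94, 3.72 and 5.41 CPM in Arid1b floxed and 0.339, 0.137 and 1.56 CPM in Arid2 floxed (direct 2.44, SE 0.75, edgeR adjusted p 0.138).

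Of 22 MYC and ribosome biogenesis genes 3 were positive, with a median of -0.22 and 6 lower in Arid1b floxed without overlap (28.1% of all genes did not overlap in either direction), and Cad, the enzyme that starts pyrimidine synthesis, had 134, 114 and 170 CPM in Arid1b floxed and 224, 260 and 236 CPM in Arid2 floxed (direct -0.79, SE 0.38, edgeR adjusted p 0.387). Of 32 cell cycle genes 16 were positive with a median of 0.0043, and Ccnd2, a G1 cyclin, had 130, 207 and 79.8 CPM in Arid1b floxed and 15.3, 96.5 and 14.4 CPM in Arid2 floxed (direct 1.73, SE 0.73, edgeR adjusted p 0.297). The 24 glycolysis and hypoxia genes had a median of 0.09, the 26 nuclear oxidative phosphorylation genes -0.07, the 26 cholesterol and fatty acid synthesis genes -0.13, and the 20 unfolded protein and amino acid stress genes 0.11, with 0 called in each. Scd2, a desaturase of fatty acids, had 214, 160 and 166 CPM in Arid1b floxed and 298, 481 and 337 CPM in Arid2 floxed (direct -1.05, SE 0.33, edgeR adjusted p 0.144). Ndrg1 differed by 1.61 (SE 0.67, edgeR adjusted p 0.282), Sdha by -0.34 (SE 0.14, edgeR adjusted p 0.307) and Ddit3 by 0.74 (SE 0.24, edgeR adjusted p 0.154). Of 10 sex-linked genes 3 were positive and 0 called, Arid2 floxed 2 being the only floxed library with Uty, at 34.6 CPM. Over the lists in which edgeR called 0 genes, 0 to 5 members had an unadjusted p under 0.05, DESeq2 called 0 to 5 and voom 0 to 11.

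**Figure D4:**
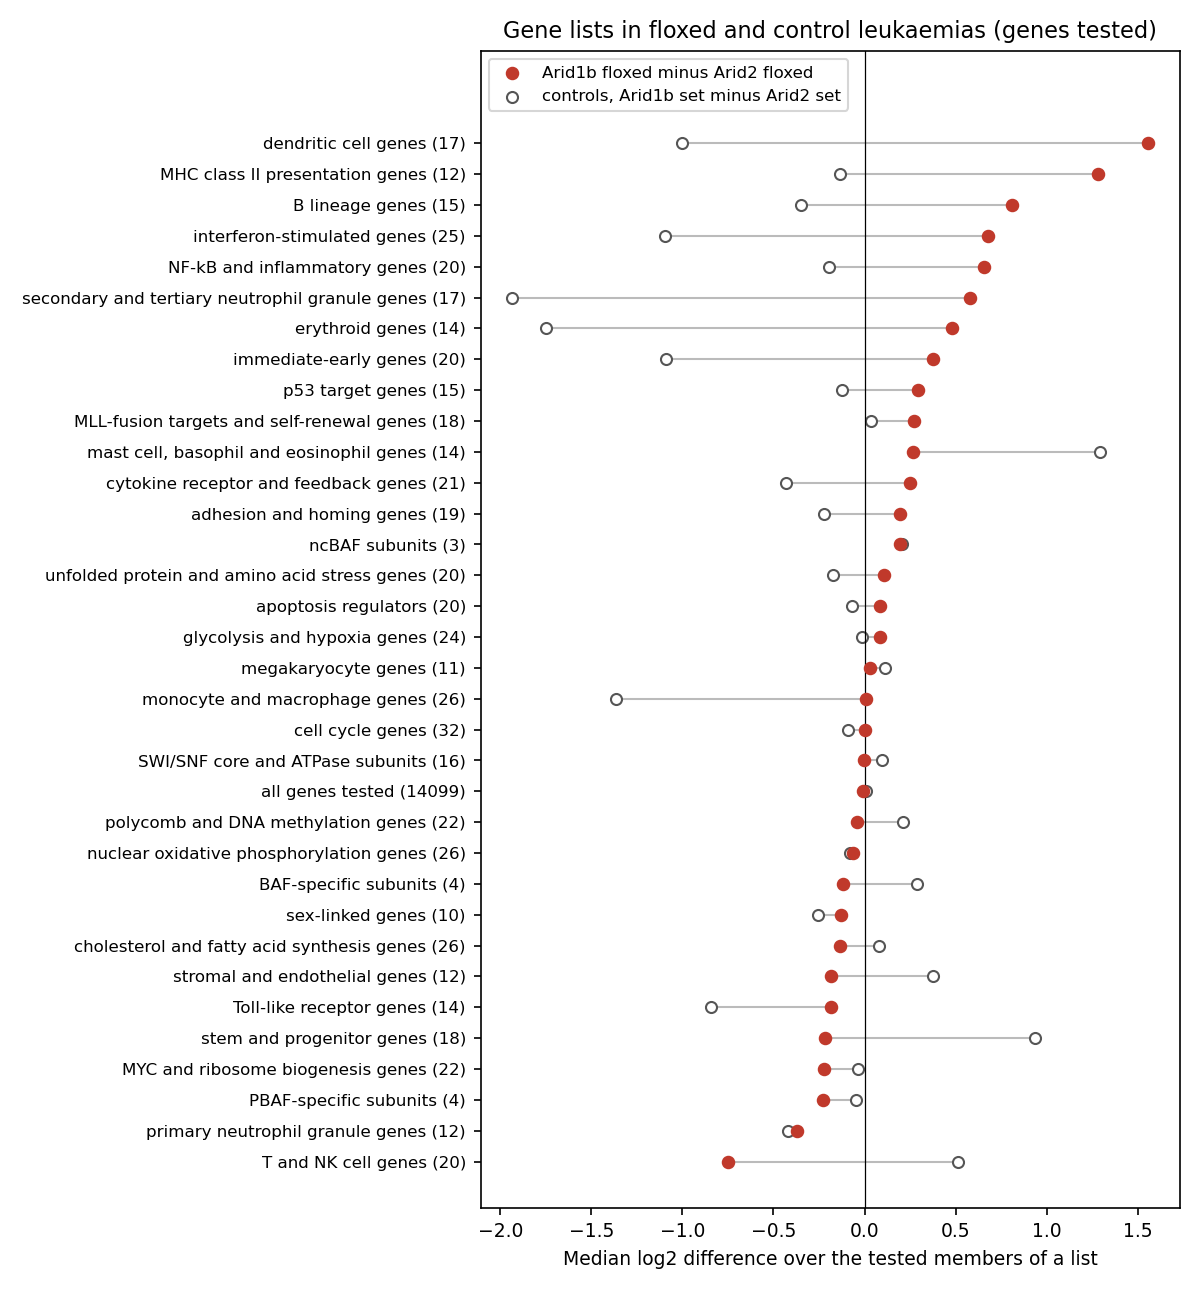
Median log2 difference over the tested members of each gene list (number in brackets), with filled points for Arid1b floxed minus Arid2 floxed and open points for the controls of the Arid1b set minus those of the Arid2 set. Dendritic and MHC class II lists have the highest floxed medians, at 1.56 and 1.28, and T and NK cell genes the lowest, at -0.75, while all 14099 genes lie at -0.0084.

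A further set of called genes differed between the Arid1b and Arid2 sets in both the floxed and the control libraries. The 4 genes called in both comparisons were the entries Mir3064, Mir6418 and Mir8094 and the predicted gene C530005A16Rik, all higher in the Arid1b set. They are named after their values were seen. An entry of this kind is the hairpin from which a mature microRNA is cut, and each of these hairpins lies within a longer host gene, so reads of the host and of the hairpin cannot be told apart in these counts. The hairpins are shown 5′ to 3′ as RefSeq gives them on GRCm38.p6, with the mature microRNAs in capitals, because they show how short the counted interval is: Mir3064 lies on the minus strand at chr11:106782693-106782759, Mir6418 on the minus strand at chr5:137529480-137529594 and Mir8094 on the plus strand at chr17:35251289-35251405.
Mir3064: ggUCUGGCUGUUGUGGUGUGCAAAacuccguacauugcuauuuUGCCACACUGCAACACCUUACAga
Mir6418: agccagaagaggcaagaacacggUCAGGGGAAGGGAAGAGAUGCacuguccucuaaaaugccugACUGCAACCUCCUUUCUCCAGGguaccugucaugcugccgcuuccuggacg
Mir8094: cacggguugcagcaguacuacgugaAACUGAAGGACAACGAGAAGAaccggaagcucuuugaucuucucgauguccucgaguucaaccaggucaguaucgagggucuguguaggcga

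The Mir3064 entry, within the RNA helicase gene Ddx5, had 66.7, 55.8 and 53.3 CPM in Arid1b floxed, against 23.8, 27.0 and 22.5 CPM in Arid2 floxed (direct 1.26, SE 0.16, edgeR adjusted p 0.00191). The controls had 36.6, 46.7 and 54.7 CPM in the Arid1b set and 22.7, 19.8 and 24 CPM in the Arid2 set (control difference 1.05, SE 0.16, edgeR adjusted p 0.0119). Ddx5 itself had a direct difference of 0.24 (SE 0.11, edgeR adjusted p 0.363). Mir6418, within Gnb2, differed by 1.19 (SE 0.17, edgeR adjusted p 0.00299) between floxed groups and 0.97 (SE 0.17, edgeR adjusted p 0.0378) between controls, and Mir8094, within the helicase gene Ddx39b, by 1.00 (SE 0.16, edgeR adjusted p 0.00491) and 1.09 (SE 0.16, edgeR adjusted p 0.0101). Gnb2 differed by 0.23 (SE 0.17, edgeR adjusted p 0.615) and Ddx39b by 0.13 (SE 0.14, edgeR adjusted p 0.757). The direct calls of Mir3064 and Mir8094 held in all 22 alternatives.

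This difference was shared by short entries in general. Over 221 microRNA entries tested, the median direct difference was 0.96 and the median control difference 0.955, with 90.5% and 92.3% positive, against 49% and 51.1% of all genes. Of the 221, 7 were called in the direct comparison (3.17%, against 0.653% of all genes). Over 86 small nucleolar and Cajal body RNA entries, the medians were 0.888 and 0.976, 83 were positive and 0 were called. By exon length of the entry, the median direct difference was 0.947 under 200 bases, 0.258 from 200 to under 1000, 0.113 from 1000 to under 2000, 0.010 from 2000 to under 4000, -0.051 from 4000 to under 8000 and -0.110 at 8000 and above. The control medians were 0.968, 0.111, -0.004, -0.014, -0.005 and 0.026. Spearman's correlation of the log2 difference with exon length across 13440 genes, which are not independent, was -0.212 for the floxed groups and -0.0573 for the controls. The part of library preparation or depth in this gradient was not tested.

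**Figure D5:**
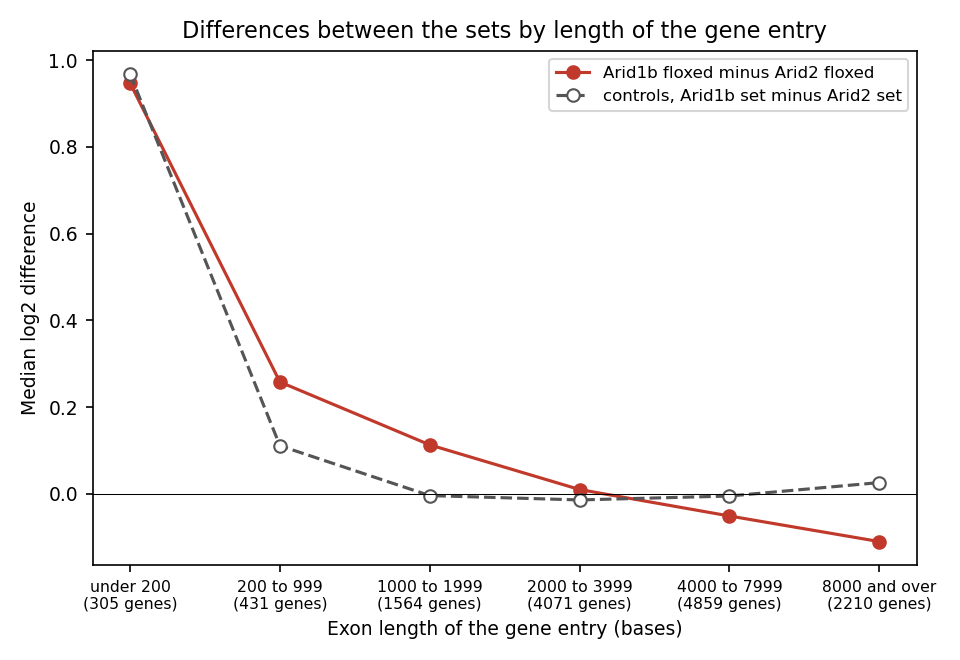
Median log2 difference by exon length of the gene entry in bases, filled points for Arid1b floxed minus Arid2 floxed and open points for the controls of the Arid1b set minus those of the Arid2 set, with the number of genes under each bin. Both lines start near 0.95 for entries under 200 bases, and the floxed line goes on falling to -0.110 at 8000 bases and above, where the control line is at 0.026.

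For Pkd1l3, Dalrd3 and Krt86, named after their values were seen, the control difference had the sign of the direct one but did not pass the test. Pkd1l3, related to polycystin channels, had 26.1, 29.8 and 30.9 CPM in Arid1b floxed, against 14.9, 16.3 and 14.7 CPM in Arid2 floxed (direct 0.92, SE 0.15, edgeR adjusted p 0.00511). Its controls had 29.6, 25.5 and 28.8 CPM in the Arid1b set and 16.9, 16.3 and 15.2 CPM in the Arid2 set (control difference 0.79, SE 0.15, edgeR adjusted p 0.0665). Dalrd3 had 108, 78.9 and 85.4 CPM in Arid1b floxed and 53.1, 64.4 and 52.9 CPM in Arid2 floxed (direct 0.68, SE 0.14, edgeR adjusted p 0.0288), with 76.4 to 90.1 CPM in the controls of the Arid1b set and 54.0 to 56.6 CPM in those of the Arid2 set (control difference 0.55, SE 0.14, edgeR adjusted p 0.143). In the other direction, Krt86, a hair keratin gene, had 2 counts over Arid1b floxed and 81 over Arid2 floxed, a ratio of 0.044 (counting interval 0.00524 to 0.164), and at most 0.108 CPM in the controls of the Arid1b set against 0.365 to 1.22 CPM in those of the Arid2 set (edgeR adjusted p 0.136 for the control difference). The call of Pkd1l3 was lost without Arid2 floxed 1, that of Dalrd3 without Arid1b floxed 1 or 4 or Arid2 floxed 1 or 3, and that of Krt86 without any one Arid1b floxed library or Arid2 floxed 1 or 3. Among the other microRNA entries called, Mir5107 lies within Cd74 and was named after its values were seen. It had a direct difference of 6.15 (SE 1.33, edgeR adjusted p 0.042) with a control difference of -0.65 (SE 1.16, edgeR adjusted p 0.877). Its call was lost without any one of 9 VavCre libraries.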

How the data were processed

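The authors deposited 1 table of raw read counts, with whole numbers for 24046 gene symbols in 24 libraries, of which 2194 had no read. Directional libraries were prepared from poly(A)-selected TRIzol RNA, per the labels' protocols. STAR and the mm10 build are named in the submitters' processing notes. Which counter, annotation and strand setting were used is not given in the sources used here, so overlapping genes, near-identical copies and short entries within host genes are uncertain. Every column matched 1 title, with 0 columns unused.

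The test was edgeR 4.0.16, run under R 4.3.3. The filterByExpr filter used the 8 groups (minimum count 10, total 15), scaling was by TMM (trimmed mean of M values), and a robust quasi-likelihood model of 8 group means was fitted to all 24 libraries, giving 16 residual degrees of freedom and a common biological coefficient of variation of 0.4. Calls needed an adjusted p (Benjamini-Hochberg over 14099 genes) under 0.05. CPM use the scaled library sizes, and log2 differences are Arid1b minus Arid2. SE was worked back from each test, as the size of the log2 difference over the square root of its quasi-likelihood F statistic. It is therefore approximate, above all where a group has almost no counts. Where a floxed group had 3 counts or fewer, the ratio of scaled counts is given with an exact 95% interval for counting error. Positions and hairpins are from RefSeq on GRCm38 (positions for 99.5% of genes) and exon lengths for 95.3%.

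The comparisons, genes and lists were chosen with earlier results of these data known. The rule for named genes was Arid1b and Arid2; the 6 highest and 6 lowest direct differences among genes called in the direct comparison and in the difference of effects, filled from called genes with non-overlapping floxed groups, a mean of at least 2 CPM and a control difference of opposite sign or under 0.5; up to 5 genes a side called in both the direct and control comparisons, which after leaving out microRNA entries and predicted genes gave 0; and of each of 33 lists the called members, at most 3, or the member with the smallest p. Other genes are marked as named after their values were seen. Unmarked are markers of leukaemia cells and of sex, Dntt, and the host genes of microRNA entries.

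The alternatives were other size factors, no filter, a stricter filter, the 12 VavCre or 6 floxed libraries alone, leaving out 2 MxCre libraries that stand apart, the replicate block, a term for Y-linked transcripts, voom with sample weights (limma 3.58.1), DESeq2 1.42.0, and leaving out each VavCre library. The fitting code was tested on simulated data.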

Additional observations from a re-analysis of the deposited data

Results flagged for a closer look

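For 2 genes the change in Arid1b floxed leukaemias differed from that in Arid2 floxed leukaemias in a test of the difference itself, each floxed group being set against its own controls. For Evpl the difference of effects was 7.51 on the log2 scale (SE 0.80, edgeR adjusted p 0.000216), with all 3 Arid1b floxed libraries above and all 3 Arid2 floxed libraries below every control. For 5031425F14Rik it was 4.82 (SE 0.63, edgeR adjusted p 0.00252), and the Arid2 floxed libraries lay below all 6 controls while the Arid1b floxed libraries lay above the controls of their own set. Both calls held in all alternatives run for the difference of effects.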

How the results depend on the processing

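The direct difference of all 92 called genes kept its sign in each of up to 22 alternatives. Their floxed groups did not overlap, so most alternatives could hardly turn a sign, and the kept signs are no separate support. Of 2016 gene and alternative pairs the call was kept in 1290 and lost in 726. The direct comparison called 53 genes without a filter, 60 with a term for Y-linked transcripts, 261 in the 12 VavCre libraries alone (78 of the 92), 326 without 2 MxCre libraries that stand apart (all 92), 3488 with voom and 585 with DESeq2. In the 6 floxed libraries alone it called 67, with 27 of the 92 kept and 62 lost. In the same order of fits, those 6 libraries apart, the control difference called 4, 0, 24, 65, 2946 and 334 genes, and the difference of effects 2, 4, 23, 19, 2484 and 256. The share of direct calls that were higher was 71.7% in the fit reported, 61.3% in the 12 VavCre libraries, 59.5% without the 2 MxCre libraries and 53.1% with voom. Leaving out 1 VavCre library gave 14 to 111 direct calls, 0 to 56 in the control difference and 2 to 13 in the difference of effects. With 2 libraries left, a group is assumed to vary like the others. The cause of these differences was not tested.

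With the replicate block the direct comparison called 30 genes, 27 of them among the 92, and the difference of effects 2. The numbers do not pair the libraries: the floxed groups share only numbers 1 and 3 (correlations of deviations 0.286 and 0.153), same-numbered controls correlated at -0.276 to -0.166.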

Other observations

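In 3 alternatives (the 12 VavCre libraries alone, without the 2 MxCre libraries that stand apart, and DESeq2), 8 genes were called in the difference of effects each time: Evpl, 5031425F14Rik, As3mt, Sat2, St8sia1, Phf11a, Lrp5 and Prcc. They were named after their values were seen. Phf11a, of a family of interferon-induced genes, had 0.472, 2.52 and 1.98 CPM in Arid1b floxed and 0.0781, 0.0548 and 0.153 CPM in Arid2 floxed, with controls at 0.0507 to 0.171 CPM in the Arid1b set and 0.521 to 0.886 CPM in the Arid2 set. Its difference of effects was 6.5 (SE 1.57, edgeR adjusted p 0.148 in the fit reported). Prcc, a nuclear protein gene, had 58.1, 55.3 and 53.8 CPM in Arid1b floxed and 61.4, 62.4 and 58.6 CPM in Arid2 floxed, while its controls were at 77.8 to 87.9 CPM in the Arid1b set and 47.8 to 55.9 CPM in the Arid2 set, so the difference of effects, -0.78 (SE 0.19, edgeR adjusted p 0.148), lies mostly in the controls, with a control difference of 0.66 (SE 0.13) and a direct difference of -0.13 (SE 0.13).

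Isg20l2 and Rrnad1 differed between the control groups and not between the floxed groups. Isg20l2, an exonuclease gene of ribosome biogenesis, had 102, 108 and 116 CPM in the controls of the Arid1b set and 68.5, 67.6 and 62.4 CPM in those of the Arid2 set (control difference 0.72, SE 0.10, edgeR adjusted p 0.0101), against 79.9, 75.5 and 70 CPM in Arid1b floxed and 78.8, 86.7 and 71.7 CPM in Arid2 floxed (direct -0.07, SE 0.10, edgeR adjusted p 0.826). All controls of the Arid1b set were Y-positive and all those of the Arid2 set Y-negative, and the part of sex in this difference cannot be told apart from that of the set.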
